A study of Mus musculus with 15 samples.

Results

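LTearly and BMTGMP are 2 groups of bone marrow cells from mice carrying the leukaemia gene MLL-AF9, and their RNA was compared over all genes. The comparison used 7 of the 15 libraries that have a sample, LTearly replicates 1, 2, 3 and 4 against BMTGMP replicates 1, 2 and 4. Members were chosen by the group in each library's title. One library whose title says LTearly and whose column says LTlate was left out, as was a BMTGMP column that belongs to none of the samples used here. The question was how MLL-AF9 cells of the 2 groups differ. From what is known of the study, LTearly was read as leukaemia that arose early from long-term haematopoietic stem cells, and BMTGMP as leukaemia in mice transplanted with granulocyte-macrophage progenitors. The labels spell out neither name.

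The mice were C57BL/6 by backcrossing and double heterozygous females, and their age is not given in the labels. The human MLL-AF9 cDNA was recombined into A2Lox-cre target cells after doxycycline had switched on Cre, and selected clones gave the chimeric founders. In that system, as background, the inserted cDNA sits behind a doxycycline-responsive promoter. Neither the number of clones nor a doxycycline treatment of the mice is given in the labels. Magnetic beads removed marrow cells that carried Ter119, B220, Gr-1, Cd11b or Cd5. The labels then describe one gate for granulocyte-macrophage progenitors (c-Kit and Cd34 positive, high Fc gamma receptor, no Sca-1 or IL-7R alpha) and one for long-term stem cells (Sca-1, c-Kit and Cd150 positive, no Cd34 or Cd48). They do not say which gate each library came from, how many mice each library holds, or whether cells of a transplant host were sorted along. Libraries of wtGMP (4, read as wild-type granulocyte-macrophage progenitors) and LTlate (3) entered the same fit, and their means are given here for reference only.

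The fusion joins the amino-terminal part of the histone methyltransferase MLL to AF9, a subunit of a transcription elongation complex. It holds a set of genes switched on that are normally active in stem and early progenitor cells, above all the later HOXA genes and Meis1. The same fusion can transform stem cells or committed myeloid progenitors. In normal marrow, granulocyte-macrophage progenitors give rise to neutrophils and monocytes, and their granule, adhesion and receptor genes come on in a fixed order.

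Gene counts came to 4006231, 3816470, 2695917 and 8695136 in LTearly 1 to 4 and to 10712743, 7654720 and 4556108 in BMTGMP 1, 2 and 4. The ranges overlapped, with means of 4803438 in LTearly and 7641190 in BMTGMP. Levels are CPM, that is counts after TMM scaling of each library to the same total. Differences are log2 fold changes, LTearly minus BMTGMP, with a standard error (SE), and adjusted p-values are from edgeR's quasi-likelihood test with Benjamini-Hochberg adjustment over all genes tested. A gene is called where that p is below 0.05. Rank correlations over 14331 genes were 0.861 to 0.904 among LTearly libraries and 0.908 to 0.932 among BMTGMP libraries. Between the 2 groups they were 0.822 to 0.917, so they overlapped those within LTearly. LTearly 4 correlated with BMTGMP 1, 2 and 4 at 0.917, 0.91 and 0.888. LTearly 4 correlated at 0.928 to 0.937 with the LTlate libraries and at 0.867 to 0.904 with the other LTearly ones, and LTearly 1 to 3 correlated with LTlate at 0.867 to 0.903. Results that turn on LTearly 4 are given with and without it. The labels do not say that libraries of a group came from separate animals, so the p-values measure the spread between these samples. The titles also hold codes that are not explained. BMTGMP 1 and 2 share the code grV and BMTGMP 4 has grX, while the gr codes of the LTearly libraries all differ. Whether BMTGMP 1 and 2 share an origin is not given. In these bulk samples, fewer cells of a type and less RNA per cell cannot be told apart.

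The genes of the sorting gates did not separate the groups cleanly. Fcgr3 (Fc gamma receptor III) stood at 355, 226, 372 and 342 CPM in LTearly 1 to 4 and at 242, 256 and 127 CPM in BMTGMP 1, 2 and 4 (log2 difference 0.63 ± 0.22 SE, adjusted p = 0.0797, and 0.0421 without LTearly 2). Kit was at 26.6 to 91.4 CPM in LTearly and 50 to 90.5 in BMTGMP (-0.36 ± 0.46, adjusted p = 0.797). Fcgr2b (0.47 ± 0.26, adjusted p = 0.32), Cd48 (0.21 ± 0.41, 0.887), Il7r (0.27 ± 1.15, 0.955) and Cd5 (0.16 ± 2.11, 0.986) were not called either. Slamf1 (Cd150), which marks the stem cell gate, had 3.66 CPM in LTearly 1, 0.418 in BMTGMP 4 and no counts in the other 5 libraries, too few to be tested. Ly6a (Sca-1) was at 16.5 CPM in LTearly 3 and at 0.278 to 2.85 CPM in the other 6 libraries (1.85 ± 2.10, adjusted p = 0.749). Cd34 did differ. It read 13.9, 40.7, 12.8 and 62.7 CPM in LTearly and 4.18, 3.36 and 6.69 CPM in BMTGMP (2.84 ± 0.52, adjusted p = 0.0049), against a wtGMP mean of 248. The gated marker genes thus place the LTearly libraries above BMTGMP at Cd34, with Sca-1 and Cd150 RNA near 0 in most libraries of both groups. Ptprc (CD45), carried by all white blood cells, was at 919 to 1639 CPM in LTearly and 593 to 878 CPM in BMTGMP (0.73 ± 0.18, adjusted p = 0.015, but 0.0729 without LTearly 3 and 0.148 without BMTGMP 2).

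The mouse genes of the fusion partners did not separate the groups. Kmt2a (MLL) read 369, 378, 207 and 368 CPM in LTearly and 304, 280 and 443 CPM in BMTGMP (-0.05 ± 0.20, adjusted p = 0.954). Mllt3 (AF9) stood at 2.11 to 13.3 CPM in LTearly and 2.33 to 9.93 CPM in BMTGMP (0.25 ± 0.61, adjusted p = 0.913). Human cDNA reads are counted here only as far as the sequence is shared with mouse, so neither value measures the level of the fusion.

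Of 14542 genes tested, 903 (6.21%) were called: 494 (3.4%) were higher in LTearly and 409 (2.81%) were lower. Counts of called members in the gene lists below are to be read beside these shares. An unadjusted p below 0.05 was reached by 2906 genes. The 7 libraries of the groups did not overlap at 2265 genes (15.6%), 1131 (7.78%) of them higher in LTearly and 1134 (7.8%) lower, and 446 of the genes called higher and 383 of those called lower were among them. Called genes differed by a median of 1.65 on the log2 scale where LTearly was higher and by -1.03 where it was lower, against 0.10 over all genes. Past 4-fold were 227 called genes, and under 2-fold 300. Leaving out LTearly 4 gave 625 higher and 665 lower calls, and leaving out BMTGMP 4 gave 267 higher, BMTGMP 2 327 higher and BMTGMP 1 245 lower. Called in each of the 7 fits with 1 library of the groups left out were 340 genes, 178 higher and 162 lower.

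**Figure D1:**
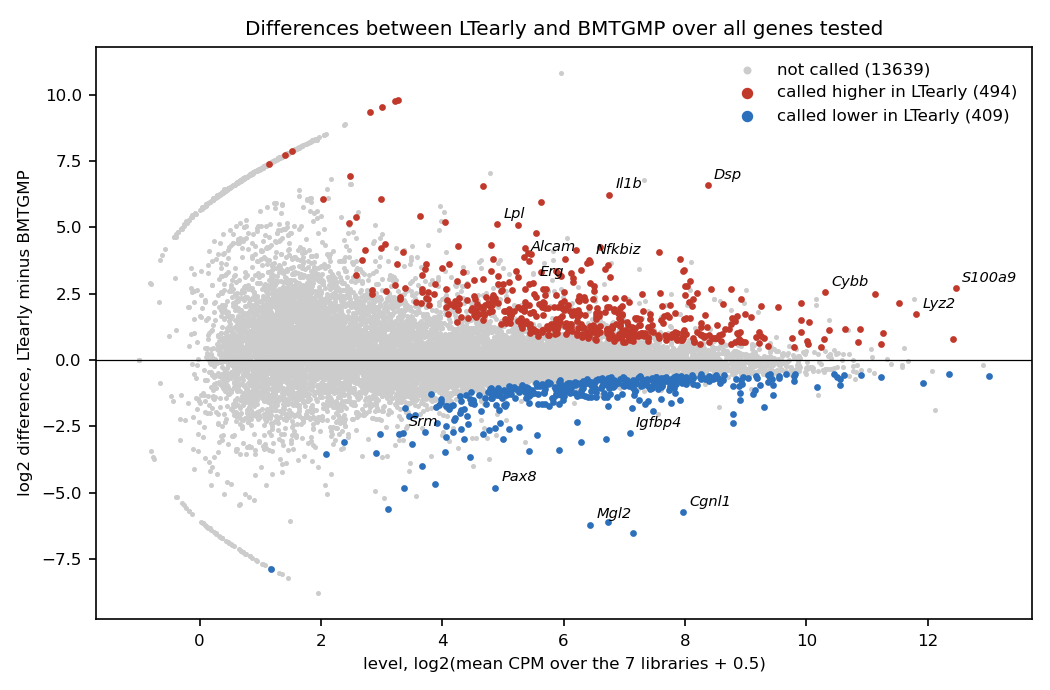
Log2 difference of LTearly minus BMTGMP (vertical axis) against the level over the 7 libraries, log2 of mean CPM plus 0.5 (horizontal axis), 1 point per gene tested. The 494 genes called higher (red) include Dsp and Il1b at the top, and the 409 called lower (blue) include Mgl2 and Cgnl1 at the bottom. The curved edges at the left are genes without counts in one group, whose fitted difference depends on the prior count.

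Erg, an ETS factor needed by blood stem cells, read 55.7, 90.1, 48.7 and 88.8 CPM in LTearly 1 to 4 and 5.01, 16.6 and 6.69 CPM in BMTGMP 1, 2 and 4. The groups did not overlap (2.91 ± 0.36, adjusted p = 1.16e-05). The LTlate mean (86.8) was at the LTearly level, and the wtGMP mean (39.1) lay between the groups. Zeb1, a repressor of epithelial genes that is known from the epithelial-mesenchymal transition (EMT), read 80.4, 48.1, 34.8 and 28.4 CPM against 4.46, 5.18 and 6.48 CPM (3.16 ± 0.47, adjusted p = 0.00012). Here the LTlate mean (5.66) was near that of BMTGMP and the wtGMP mean (36.2) near that of LTearly. Mecom (Evi1), a stem cell factor tied to poor outcome in human acute myeloid leukaemia, read 23, 34.8, 31.5 and 20.2 CPM in LTearly and 0.835, 0 and 0.836 CPM in BMTGMP. All 4 LTearly libraries stood above 20 CPM and all 3 BMTGMP libraries below 1. It was not called, however (5.59 ± 2.07, adjusted p = 0.149). With only the 7 libraries of the 2 groups in the fit it was called (adjusted p = 0.00519), likewise with every library thinned to equal depth (0.0216) and with the replicate number as a block (0.0329). In LTlate and wtGMP, which share the estimate of the spread, 1 library each had counts (5.72 and 3.79 CPM) and the others had none.

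Among MLL fusion targets, 2 of 28 tested genes were higher and 6 lower, with a median log2 difference of -0.53. The 6 lower calls numbered 2 without LTearly 2 or BMTGMP 1 and 3 without BMTGMP 4. Hoxa9, the central HOX gene of these leukaemias, read 124, 58.2, 61.5 and 65.9 CPM in LTearly and 185, 127 and 249 CPM in BMTGMP (-1.27 ± 0.28, adjusted p = 0.00619), with 16 CPM on average in wtGMP. The call was lost without LTearly 3 and 4 together (0.0536). All 7 libraries were thus above the wtGMP mean, and LTearly was the lower of the 2 groups. Meis1, the partner of Hoxa9, read 157, 102, 130 and 32.3 CPM against 217, 197 and 289 CPM. It was not called (-1.16 ± 0.42, adjusted p = 0.133), but was without LTearly 4 (adjusted p = 0.0472). The HOX genes Hoxa7 (-0.65 ± 0.25, adjusted p = 0.125) and Hoxa10 (-0.21 ± 0.61, 0.931) and the HOX partner gene Pbx3 (0.08 ± 0.39, 0.96) were not called, and these 3 were chosen after their values were seen.

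Further lower targets were the histone demethylase family gene Jmjd1c (-0.67 ± 0.17, adjusted p = 0.0171), the cell cycle kinase gene Cdk6 (-0.74 ± 0.19, 0.0199), the factor gene Sox4 (-2.70 ± 0.68, 0.035) and the stem cell adaptor gene Lmo2 (-0.90 ± 0.26, 0.0381). Cdk6, Sox4 and Lmo2 were chosen after their values were seen, and the groups overlapped at Sox4 (11.8 CPM in LTearly 4, 10.7 CPM in BMTGMP 2). These 4 calls were not firm. Without BMTGMP 1 their adjusted p-values were 0.0691, 0.0524, 0.136 and 0.0891 in that order. Jmjd1c and Cdk6 were also lost without BMTGMP 4 (0.0545 and 0.0559) and without LTearly 2 (0.05 and 0.0628). Sox4 was lost in 5 of the 7 such fits (adjusted p up to 0.136, kept without LTearly 4 and without BMTGMP 2), as was Lmo2 (up to 0.0891, kept without LTearly 4 and without BMTGMP 4). In the other direction, Mef2c, a factor of early lymphoid and myeloid progenitors, read 522, 587, 291 and 419 CPM against 121, 39.7 and 76.3 CPM (2.52 ± 0.36, adjusted p = 0.00075). Satb1, a chromatin organiser, read 11, 32.7, 20.1 and 14 CPM against 2.13, 6.6 and 2.72 CPM (2.34 ± 0.51, adjusted p = 0.00467). The lineage factor gene Myb, which also belongs to these targets and was chosen after its values were seen, stood at 348 to 641 CPM in LTearly 1 to 3, 1366 CPM in LTearly 4 and 1239 to 2589 CPM in BMTGMP (-1.31 ± 0.42, adjusted p = 0.0989, and 0.000619 without LTearly 4).

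**Figure D2:**
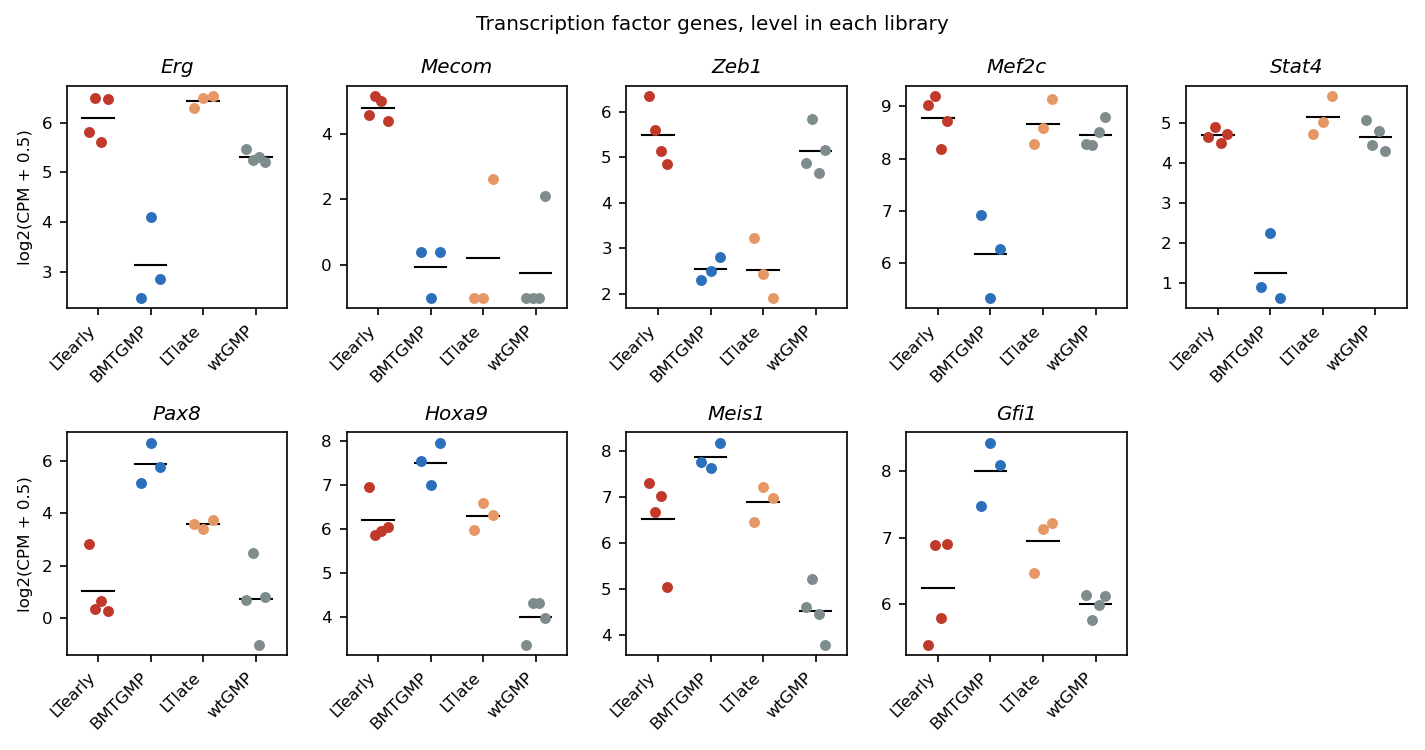
Level of 9 transcription factor genes in each library, as log2 of CPM plus 0.5, with 1 point per library and a bar at the group mean of these log2 levels. The scale differs between panels. Erg, Mecom, Zeb1, Mef2c and Stat4 (top row) separate the 4 LTearly from the 3 BMTGMP points, and Pax8, Hoxa9, Meis1 and Gfi1 (bottom row) separate them the other way. The panels are a selection of genes that separate the groups. Spi1, Zeb2 and Junb, where the groups overlapped, are not shown.

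Gfi1, a repressor that steers progenitors to neutrophils, was lower in LTearly, at 41.3, 118, 54.9 and 119 CPM against 177, 345 and 273 CPM (-1.66 ± 0.32, adjusted p = 0.00349). Pax8, a factor of thyroid and kidney, read 6.6, 0.798, 1.1 and 0.702 CPM in LTearly and 34.8, 103 and 54.6 CPM in BMTGMP (-4.81 ± 0.87, adjusted p = 0.00302). Of 28 myeloid fate transcription factor genes, Gfi1 alone was lower and 5 were higher: Nab2, a partner of EGR factors (3.63 ± 0.70, adjusted p = 0.00177), Klf2 (1.36 ± 0.30, 0.00536), Junb (1.72 ± 0.42, 0.018), Egr1 (1.98 ± 0.47, 0.0185) and Klf6. The higher count was 3 without LTearly 3 and 2 without BMTGMP 2 or BMTGMP 4. At Junb the groups overlapped, with LTearly 4 below BMTGMP 1 and BMTGMP 2. Klf2 (0.0563), Junb (0.0907) and Egr1 (0.105) were lost without BMTGMP 4, Junb (0.0639) and Egr1 (0.12) without BMTGMP 2, and Egr1 also without LTearly 3 (0.0512). Spi1 (PU.1), the main myeloid factor, was chosen after its values were seen and was not called (0.43 ± 0.23, adjusted p = 0.314). Of 21 tested stem cell genes, Erg and Cd34 were the 2 called, both higher, against 3.4% of all genes called higher. The list had a median of 0.40. Flt3, the growth factor receptor of early progenitors, stood at 6.6 to 39.3 CPM in LTearly and at 10.9, 0.776 and 0.209 CPM in BMTGMP. It was chosen after its values were seen and was not called (2.66 ± 0.90, adjusted p = 0.107). It was called without BMTGMP 1 (5.58e-05), by DESeq2 (0.0108) and after thinning to equal depth (0.0313).

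Of 24 EMT genes, 3 were higher and 1 lower (median 0.49), with 1 higher without BMTGMP 2 or BMTGMP 4. Over all genes 3.4% were higher and 2.81% lower, so a count of 1 is near those shares. Beside Zeb1 the called EMT genes were Tcf4, another factor of the programme (1.28 ± 0.30, adjusted p = 0.0101), the calcium-binding protein gene S100a4 (3.72 ± 0.91, 0.0362) and, lower, the galectin gene Lgals1 (-0.98 ± 0.23, 0.0105). Tcf4 was lost without BMTGMP 2 (0.0757) or BMTGMP 4 (0.0812), S100a4 in 6 of the 7 fits without 1 library (0.0546 to 0.15, kept without LTearly 4), and Lgals1 without BMTGMP 1 (0.136). Zeb1 was called in all 7. The next 6 genes were chosen after their values were seen. Zeb2, the close relative of Zeb1, stood at 520 to 1441 CPM in LTearly and 507 to 930 CPM in BMTGMP (0.16 ± 0.31, adjusted p = 0.879). The mesenchymal filament gene Vim (1.14 ± 0.34, adjusted p = 0.0743) read 2687, 2314, 2164 and 1456 CPM against 1731, 656 and 549 CPM, and was called without LTearly 4 (0.0367), without BMTGMP 1 (5.36e-06), by DESeq2 (0.0145), with the replicate block (0.00743) and after thinning (0.0434). Fibronectin (Fn1) stood at 1039 to 2553 CPM against 272 to 622 CPM, with no overlap but no call (2.07 ± 0.75, adjusted p = 0.156). It was called by DESeq2 (0.018) and with only the 7 libraries in the fit (0.0236). Snai1 and Twist1, which encode classic EMT factors, had counts in 1 library of each group, LTearly 1 (0.977 and 3.91 CPM) and BMTGMP 4 (3.55 and 1.05 CPM), and were too low to be tested. E-cadherin (Cdh1) stood at 2.69 to 17.2 CPM against 0 to 4.4 CPM (2.28 ± 1.18, adjusted p = 0.284).

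Called members of the adhesion and invasion lists were all higher in LTearly. Cgnl1, a protein of cell junctions, and the collagen gene Col5a3 are outside these lists and were lower, as given below. Of 23 tested integrin genes 6 were higher and none lower (median 1.17), of 32 homing and adhesion receptors 10 and none (median 0.95), and of 25 invasion proteases 7 and none (median 1.59), against 3.4% of all genes called higher. Without LTearly 4 these counts were 6, 12 and 9, and without BMTGMP 1 they were 5, 5 and 3. The 10 receptors were also reduced to 6 without LTearly 3 or BMTGMP 4, and the 7 proteases to 4 without BMTGMP 2 and 3 without BMTGMP 4. Dsp, which encodes the desmosome protein desmoplakin, was the single called member of 16 epithelial junction genes. It read 765, 659, 170 and 708 CPM in LTearly and 3.06, 0.906 and 15.7 CPM in BMTGMP (6.58 ± 0.98, adjusted p = 0.0031). The LTlate mean was 152 CPM and the wtGMP mean 10.8 CPM, so LTearly was the highest of the 4 groups. Alcam (CD166), a cell contact receptor, read 107, 45.7, 33 and 82.2 CPM against 1.76, 7.12 and 5.02 CPM (3.88 ± 0.44, adjusted p = 5.24e-06). BMTGMP was the group that stood apart here, with 43.5 CPM on average in LTlate and 64.7 CPM in wtGMP.

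Integrin alpha 1 (Itga1), a collagen receptor chain, read 135, 141, 54.6 and 213 CPM against 14, 12.9 and 28.6 CPM (2.90 ± 0.40, adjusted p = 0.000389). Itga6, a laminin receptor chain, read 30.5, 124, 54.2 and 92.2 CPM against 27.7, 10.4 and 10.9 CPM (2.19 ± 0.42, adjusted p = 0.00316). The lowest LTearly library was close to the highest BMTGMP library at Itga6, replicate 1 in both groups. Itgam (CD11b), the alpha chain of Mac-1 and a target of the bead depletion, read 1333, 1388, 1710 and 863 CPM against 413, 538 and 466 CPM (1.49 ± 0.26, adjusted p = 0.00153), with 56.6 CPM on average in wtGMP. Itgb7, a gut homing integrin chain, was higher by 2.87 ± 0.60 (adjusted p = 0.00903, but 0.0602 without BMTGMP 4). Itgb2, the beta chain of Mac-1, was higher by 0.73 ± 0.20 (0.0252) with overlapping groups, and was lost without LTearly 1 (0.0612), LTearly 3 (0.0677), BMTGMP 1 (0.204) or BMTGMP 2 (0.156). Cd44, the hyaluronan receptor, read 1052, 444, 541 and 450 CPM against 263, 158 and 251 CPM (1.47 ± 0.26, adjusted p = 0.00152). LTearly 1 was far above the other 3 there. The chemokine receptor gene Ccr1 was higher by 3.82 ± 0.72 (adjusted p = 0.00751). Ceacam1 was higher by 0.91 ± 0.19 (0.00355, but 0.0546 without BMTGMP 1). The formyl peptide receptor gene Fpr2 was higher by 3.34 ± 0.71 (0.00436, but 0.0584 without LTearly 3). Ceacam1 and Fpr2 share reads with close paralogs, so their counts are uncertain.

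Plaur, the urokinase receptor that gathers proteolysis at the cell surface, read 195, 145, 133 and 66.8 CPM against 18.4, 46.1 and 17.6 CPM (2.3 ± 0.36, adjusted p = 0.000316). Cathepsin B (Ctsb), a lysosomal protease, read 402, 322, 548 and 371 CPM against 232, 133 and 149 CPM (1.26 ± 0.22, adjusted p = 0.000654). Both groups of values were apart at these genes. Adam8, a membrane protease of leucocytes, read 262, 113, 233 and 38.5 CPM against 5.38, 13.3 and 6.27 CPM (4.27 ± 0.79, adjusted p = 0.00938, with 0.0552 without BMTGMP 1 and 0.0544 without BMTGMP 4). Adam9 (2.0 ± 0.45, adjusted p = 0.0111) was lost without BMTGMP 1 (0.0593) or BMTGMP 2 (0.0589). The gelatinase gene Mmp9 (2.58 ± 0.62, adjusted p = 0.0299) was lost without LTearly 1 (0.0565), BMTGMP 1 (0.137), BMTGMP 2 (0.0938) or BMTGMP 4 (0.117). Emilin2, a glycoprotein of the matrix, read 561, 289, 543 and 216 CPM against 129, 72.1 and 66.5 CPM (2.17 ± 0.36, adjusted p = 0.00259). It was the 1 gene called by edgeR of the 31 listed extracellular matrix genes tested (median 0.25), near the 3.4% of all genes called higher. DESeq2 called 6 of the 31, and 7 stood at an unadjusted p below 0.05. Their summed level was 1564 to 4882 CPM in LTearly and 678 to 1015 CPM in BMTGMP. Abcb1b, a drug efflux pump, read 24.9, 24.5, 22.3 and 14.7 CPM in LTearly and 3.9, 3.75 and 3.76 CPM in BMTGMP (2.49 ± 0.34, adjusted p = 4.97e-05). Both groups lay below LTlate (51.2) and wtGMP (68.4). With Mgst1, a detoxifying transferase (1.96 ± 0.43, adjusted p = 0.0049), it made up the 2 called of 28 drug transport and detoxification genes.

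**Figure D3:**
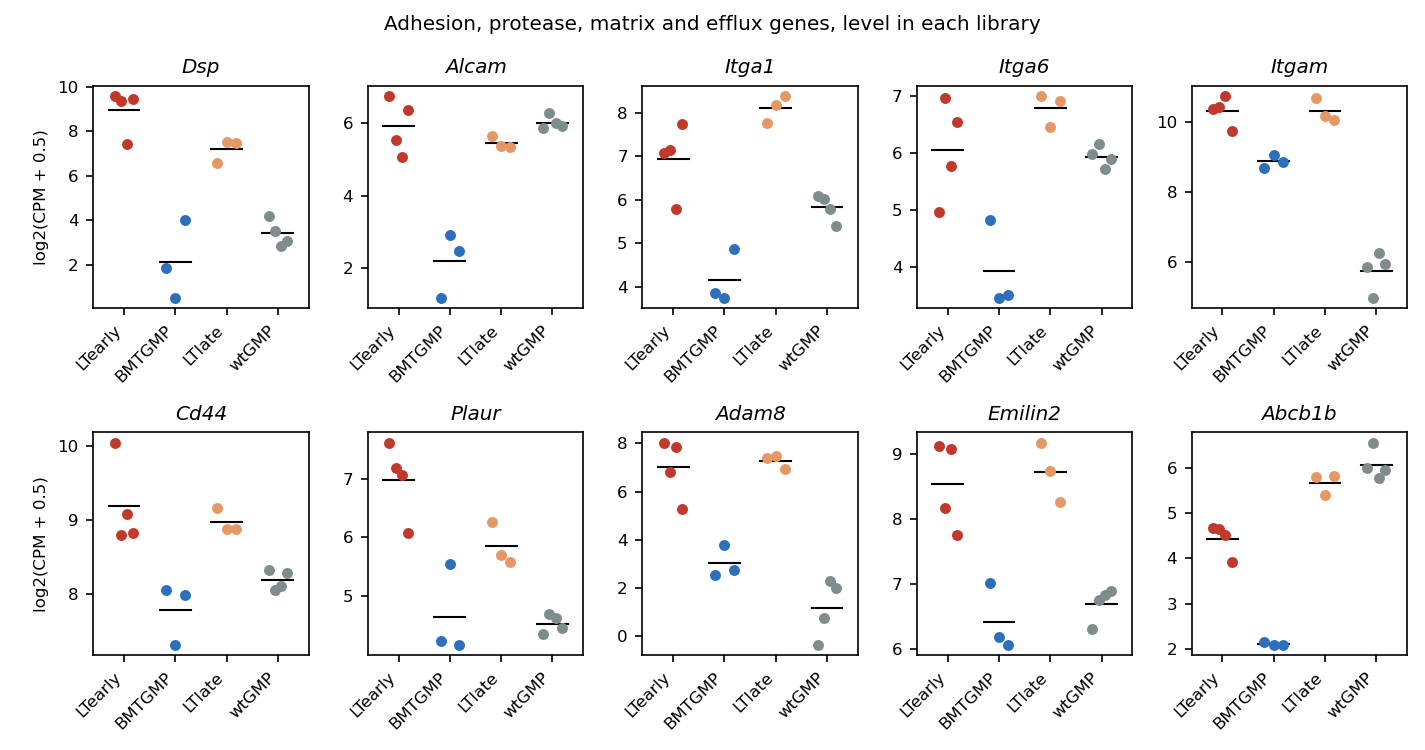
Level of 10 adhesion, protease, matrix and efflux genes in each library, as log2 of CPM plus 0.5, with 1 point per library and a bar at the group mean of these log2 levels. The scale differs between panels. The 4 LTearly points lie above the 3 BMTGMP points in all 10 panels, with Dsp at 170 to 765 CPM in LTearly and 0.906 to 15.7 CPM in BMTGMP. The panels hold only genes called higher without overlap, so this separation follows from their choice. Itgb2, called with overlapping groups, and Fn1 and Cdh1, not called, are not shown.

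Genes of maturing neutrophils were higher in LTearly. Of 28 late neutrophil genes tested, 17 were called higher and none lower, and all 28 had a positive log2 difference (median 2.53, against 0.10 over all genes). Their summed level was 26823, 34172, 36382 and 23051 CPM in LTearly 1 to 4 and 2671, 10995 and 4156 CPM in BMTGMP 1, 2 and 4. BMTGMP 2 was the highest of its group, and without it 16 genes were called. Fewer were called without LTearly 2 (9), LTearly 3 (8), BMTGMP 1 (8) or BMTGMP 4 (7), or with only the 7 libraries in the fit (7). Annexin A1 (Anxa1), which curbs neutrophil recruitment, read 1253, 1618, 1705 and 1203 CPM against 233, 523 and 226 CPM (2.14 ± 0.25, adjusted p = 2.77e-05). The receptor gene of the growth factor G-CSF, Csf3r, read 197, 136, 174 and 150 CPM against 69.7, 56.9 and 69.4 CPM (1.33 ± 0.24, adjusted p = 0.000963). Olfactomedin 4 (Olfm4), a granule protein of a neutrophil subset, read 517, 543, 944 and 716 CPM against 86.6, 136 and 98 CPM (2.67 ± 0.41, adjusted p = 0.0021). The groups lay apart at these 3 genes, and the wtGMP mean of Olfm4 was 2.67 CPM.

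The granule genes of later stages followed the same order with wider spread. The calgranulin gene S100a9 stood at 5399 to 12414 CPM in LTearly and at 546, 2640 and 867 CPM in BMTGMP (2.71 ± 0.62, adjusted p = 0.0298). That call was lost without LTearly 2 (0.0578), LTearly 3 (0.0633), BMTGMP 1 (0.0911) or BMTGMP 4 (0.114). Lactoferrin (Ltf, chosen after its values were seen) stood at 2118 to 5145 CPM against 216, 1124 and 516 CPM (2.48 ± 0.59, adjusted p = 0.0347). It was lost in 5 of the 7 fits without 1 library (0.0568 to 0.131, kept without LTearly 4 and without BMTGMP 2). The antimicrobial peptide gene Camp, also chosen after its values were seen, was not called (1.80 ± 0.59, adjusted p = 0.112), but was without BMTGMP 2 (0.00443). Haptoglobin (Hp, 0.90 ± 0.19, adjusted p = 0.00456) and the histone-modifying enzyme gene Padi4 (3.41 ± 0.69, 0.0141) kept their calls in all 7 such fits but lost them with only the 7 libraries in the fit (0.0514 and 0.0523). Both were chosen after their values were seen.

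Primary granule genes, which come on earliest in the neutrophil series, went the other way in part. Of 19, 4 were lower and 2 higher (median -0.62). Igfbp4, Calr and Clec5a are in this list but do not encode granule proteins. Of the lower calls, Igfbp4 alone was kept in all 7 fits without 1 library. The lower count was 7 without LTearly 4, 2 without LTearly 2, LTearly 3, BMTGMP 2 or BMTGMP 4, and 1 without BMTGMP 1. The IGF-binding protein gene Igfbp4 read 23.4, 51.8, 19 and 59.5 CPM in LTearly and 199, 289 and 306 CPM in BMTGMP (-2.76 ± 0.33, adjusted p = 7.63e-05). Cathepsin G (Ctsg) read 135, 287, 153 and 486 CPM against 882, 610 and 793 CPM (-1.52 ± 0.36, adjusted p = 0.0261), and was lost without LTearly 2 (0.0606), BMTGMP 1 (0.103) or BMTGMP 4 (0.103). Neutrophil elastase (Elane, -1.76 ± 0.45, adjusted p = 0.0417) and the chaperone gene Calr (-0.62 ± 0.17, 0.0283) completed the count, and both depended on single libraries. Elane was lost without LTearly 2 (0.0914), LTearly 3 (0.0996), BMTGMP 1 (0.0931), BMTGMP 2 (0.14) or BMTGMP 4 (0.0839). Calr was lost without LTearly 1 (0.0575), LTearly 3 (0.0825), BMTGMP 1 (0.135) or BMTGMP 2 (0.0578). Myeloperoxidase (Mpo, chosen after its values were seen) read 560, 2014, 932 and 4763 CPM against 5715, 8999 and 8292 CPM. It was not called (-1.89 ± 0.60, adjusted p = 0.102), but was without LTearly 4 (0.00424). At Ctsg, Elane and Mpo, LTearly 4 was the LTearly library nearest to BMTGMP. The higher members were the lectin receptor gene Clec5a (2.51 ± 0.48, adjusted p = 0.00906, and 0.0607 without BMTGMP 1) and cathepsin C (Ctsc, 2.42 ± 0.57, 0.0249). Ctsc was lost without LTearly 1 (0.0539), LTearly 3 (0.0543) or BMTGMP 4 (0.138).

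Listed monocyte and macrophage genes were higher as well, 9 of 32 with none lower (median 1.57), and 5 without BMTGMP 2 or BMTGMP 4. The macrophage lectin gene Mgl2 and its copy Clec10a are not in that list. Both were called lower, as given below. Cybb, the catalytic chain of the phagocyte oxidase, had one of the smallest p-values of all genes. It read 2272, 1784, 2242 and 1580 CPM against 276, 468 and 250 CPM (2.57 ± 0.22, adjusted p = 6.01e-08), with 1152 CPM on average in LTlate and 183 CPM in wtGMP. Lysozyme (Lyz2) read 4098, 6783, 4298 and 5327 CPM against 1954, 1528 and 1111 CPM (1.74 ± 0.23, adjusted p = 6.32e-05), where reads may be divided with its copy Lyz1. Cd14, the endotoxin co-receptor, read 134, 60.6, 75.1 and 22.4 CPM against 3.53, 6.86 and 3.14 CPM (4.0 ± 0.65, adjusted p = 0.000978). Ccl6, a chemokine of macrophages, was higher by 2.69 ± 0.47 (adjusted p = 0.00122). The scavenger receptor gene Msr1 was higher by 5.10 ± 1.07 (0.0153, but 0.0714 without BMTGMP 1 and 0.0559 without BMTGMP 4). Csf1r, the receptor that defines monocytes, was chosen after its values were seen. It read 296, 197, 350 and 102 CPM against 160, 38.9 and 43.3 CPM and was not called (1.54 ± 0.51, adjusted p = 0.115). Without LTearly 4 its adjusted p was 0.0284 and without BMTGMP 1 it was 9.11e-05. Of 9 S100 genes tested 4 were higher (median 1.94, with 2 without LTearly 2 or LTearly 3 and 1 without BMTGMP 1 or BMTGMP 4), among them S100a10 (1.94 ± 0.32, adjusted p = 0.000362). Of 29 C-type lectin and Fc receptor genes 6 were higher and 1 lower (median 1.25, with 2 higher without BMTGMP 1 and 3 without BMTGMP 4), led by Trem1, an amplifier of inflammation in neutrophils and monocytes. Trem1 read 211, 182, 248 and 54.7 CPM against 12.5, 26.1 and 20.3 CPM (3.14 ± 0.49, adjusted p = 0.00132).

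Markers of cell types outside these lineages were low in both groups. Summed over 13 B cell markers the level was 21.3 to 46.5 CPM in LTearly and 13.8 to 31.6 CPM in BMTGMP, and over 16 T and NK cell markers 19.5 to 53.4 against 19.2 to 22 CPM. Erythroid markers (16) summed to 27.9 to 48.7 against 6.47 to 16.4 CPM, and megakaryocyte markers (13) to 31.9 to 54 against 4.92 to 23.2 CPM. Eosinophil, basophil and mast cell markers (22) summed to 99.4 to 234 against 53.7 to 91.2 CPM, dendritic cell markers (16) to 186 to 296 against 63.8 to 152 CPM, and stromal and endothelial markers (20) to 105 to 120 against 52.1 to 128 CPM. At the erythroid, megakaryocyte, eosinophil and dendritic cell lists every LTearly sum lay above every BMTGMP sum. The stromal list also holds Bglap, the mast cell list Tpsab1 and the erythroid list Tspo2, which had no counts in the 7 libraries. By edgeR 0 of the tested B cell (6), T and NK cell (10), erythroid (10), megakaryocyte (5) and stromal (16) markers were called, and DESeq2 called 0 as well. At an unadjusted p below 0.05 stood 1 T and NK cell marker and 1 erythroid marker. In the other lists Prg2, an eosinophil granule gene (3.77 ± 0.92, adjusted p = 0.0356), and Tcf4, given above, were called by edgeR. DESeq2 called 3 of the 13 tested eosinophil, basophil and mast cell markers, and 4 stood at an unadjusted p below 0.05. Of the 12 tested dendritic cell markers DESeq2 called 4, and 5 stood at an unadjusted p below 0.05. Prg2 was lost without LTearly 2 (0.0516), LTearly 3 (0.0729), BMTGMP 1 (0.158), BMTGMP 2 (0.0996) or BMTGMP 4 (0.114). The part that such cells have in the differences was not tested.

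Inflammatory genes formed a further group that was higher in LTearly, and 3 promoters among them are shown because they carry letters bound by NF-kappaB, the factor that inflammatory signals release. They are 120 bases before the start of the gene, 5′ to 3′ on the gene's strand, from RefSeq on the build GRCm38.p6, which differs from the mm9 build of the counts. Capitals mark a match to the letters GGGA, any 1 base, then TTTCC, searched on both strands.
Cxcl2, chr5:90903779-90903898 on the plus strand: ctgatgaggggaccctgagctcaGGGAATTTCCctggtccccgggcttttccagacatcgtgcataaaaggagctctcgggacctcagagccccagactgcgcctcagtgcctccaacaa
Nfkbia, chr12:55492648-55492767 on the minus strand: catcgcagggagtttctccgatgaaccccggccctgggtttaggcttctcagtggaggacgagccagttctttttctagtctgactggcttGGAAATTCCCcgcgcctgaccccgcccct
Ifngr2, chr16:91546939-91547058 on the plus strand: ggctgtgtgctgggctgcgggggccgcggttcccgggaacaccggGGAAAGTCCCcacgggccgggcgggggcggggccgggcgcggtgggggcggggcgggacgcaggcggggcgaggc
The match starts 97 bases before the gene start in Cxcl2, 29 in Nfkbia and 75 in Ifngr2, and in the last pair it lies on the opposite strand. Within 250 bases before the start, 112 of 27025 promoters of the RefSeq table hold it (0.414%). Among genes tested 52 of 11651 hold it (0.446%). Of the genes called higher in LTearly that have a promoter in the table, 6 of 396 hold it (1.52%), and of those called lower, 1 of 347 (0.288%, Rbm19). The 6 are Cxcl2, Ifngr2, Il16, Myadm, Nfkbia and Pglyrp1. The called genes Il1b, Tnf, Osm, Nlrp3, Nfkbiz and Birc3 are not among them, for want of a match or of a promoter in the table. In the list of cytokines, chemokines and inflammatory mediators 4 of 17 promoters hold it (23.5%, Csf1, Cxcl1, Cxcl2 and Il6), and Cxcl2 alone of these was called. A match describes the letters and not binding, and a part of NF-kappaB in the differences was not tested.

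Of 27 cytokine, chemokine and mediator genes, 6 were higher and none lower (median 2.11), and 3 without LTearly 3 or BMTGMP 4. Oncostatin M (Osm), a cytokine of the interleukin 6 family, read 105, 103, 119 and 51 CPM in LTearly and 6.13, 12.7 and 8.99 CPM in BMTGMP (3.35 ± 0.41, adjusted p = 8.66e-06). Its co-receptor chain gene Il6st was higher too (1.41 ± 0.24, adjusted p = 0.000519). Nlrp3, the sensor of the inflammasome, read 110, 73.9, 67.8 and 26.9 CPM against 21.3, 7.12 and 8.57 CPM (2.48 ± 0.45, adjusted p = 0.002). Interleukin 1 beta (Il1b) varied most within LTearly, at 430, 47.6, 260 and 4.8 CPM, against 1.21, 4.14 and 2.09 CPM (6.23 ± 1.44, adjusted p = 0.0301). Replicate 4 was barely above the highest BMTGMP library. The neutrophil chemokine gene Cxcl2 showed the same order, with 167, 29.5, 136 and 6.67 CPM against 1.49, 0.388 and 2.3 CPM (5.96 ± 1.47, adjusted p = 0.0404). Both calls were fragile: Il1b was lost without LTearly 3 (0.0565), BMTGMP 1 (0.122), BMTGMP 2 (0.0865) or BMTGMP 4 (0.114), and Cxcl2 without LTearly 1 (0.0649), LTearly 3 (0.0705), BMTGMP 1 (0.144), BMTGMP 2 (0.146) or BMTGMP 4 (0.118). With the replicate block (0.147 and 0.128) and with only the 7 libraries in the fit (0.16 and 0.0776) neither was called. Tnf, the sixth member with Ccl6 given above, was called with overlapping groups (2.11 ± 0.64, adjusted p = 0.0441). It was lost without LTearly 1 (0.326), LTearly 3 (0.0541), BMTGMP 1 (0.0733), BMTGMP 2 (0.192) or BMTGMP 4 (0.111), and was named to complete the count.

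Of 30 JAK-STAT and NF-kappaB pathway genes, 9 were higher and none lower (median 0.92), with 4 without BMTGMP 1 and 5 without BMTGMP 2. Nfkbiz, a nuclear regulator of NF-kappaB, read 202, 139, 179 and 44.2 CPM against 11.9, 9.57 and 9.83 CPM (3.75 ± 0.40, adjusted p = 5.24e-06). Nfkbia, the inhibitor that NF-kappaB switches on in feedback, read 246, 158, 155 and 74.5 CPM against 45.4, 55.4 and 16.5 CPM (2.01 ± 0.44, adjusted p = 0.0139, but 0.0553 without BMTGMP 1). In both genes the 4 LTearly libraries were above the 3 of BMTGMP, with replicate 4 the lowest of them. Stat4, a signal transducer known from interleukin 12 responses, read 24.4, 29.2, 22 and 26 CPM against 1.39, 4.27 and 1.05 CPM (3.48 ± 0.49, adjusted p = 7.19e-05). LTlate (36) and wtGMP (25.1) means were at the LTearly level there. The kinase genes Jak2 (1.14 ± 0.21, adjusted p = 0.00105) and Jak1 (0.83 ± 0.18, 0.00507) were higher by less. Ifngr2, a chain of the interferon gamma receptor, was higher by 1.30 ± 0.35 (adjusted p = 0.0224), and was lost without LTearly 3 (0.074), BMTGMP 2 (0.0764) or BMTGMP 4 (0.181).

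Immediate early and stress genes were called higher in 9 of 31 cases (median 1.44), and in 5 without BMTGMP 4. Zfp36, which destabilises cytokine messages, read 178, 274, 255 and 124 CPM against 87.5, 74.5 and 43.3 CPM (1.60 ± 0.27, adjusted p = 0.000585). Gadd45a, a stress and p53 response gene, read 148, 132, 164 and 46.5 CPM against 13.3, 26.4 and 37 CPM (2.27 ± 0.40, adjusted p = 0.00125). The nuclear receptor gene Nr4a1 was higher by 2.66 ± 0.51 (adjusted p = 0.00224) and the growth-arrest gene Btg2 by 1.33 ± 0.26 (0.002). Of 22 p53 target genes 5 were higher (median 0.53), 3 without LTearly 1, LTearly 3 or BMTGMP 2 and 2 without BMTGMP 1 or BMTGMP 4, with Cdkn1a, the main arrest gene of p53, at 50.6 and 48.9 CPM in LTearly 1 and 2, 11.4 and 4.21 CPM in LTearly 3 and 4, and 3.75 to 8.07 CPM in BMTGMP (2.33 ± 0.68, adjusted p = 0.042). That call was lost in 5 of the 7 fits without 1 library (0.0723 to 0.174, kept without LTearly 3 and without LTearly 4). Apoptosis regulators were higher at 6 of 30 (median 0.42), at 2 without LTearly 1 and at 3 without BMTGMP 2 or BMTGMP 4. Birc3, a survival gene that NF-kappaB switches on, read 157, 69.7, 146 and 61.6 CPM against 34.2, 19.4 and 33.7 CPM (1.9 ± 0.32, adjusted p = 0.000597). Its deposited values were not whole in any of the 7 libraries, so reads with several hits were split there and its counts are uncertain. The inflammatory caspase gene Casp4 was higher by 1.84 ± 0.41 (adjusted p = 0.00525).

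Replicate 4 was the LTearly library nearest to BMTGMP at many of these genes: at 5 of the 6 called cytokine genes, 7 of the 9 immediate early genes and 10 of the 17 late neutrophil genes. This did not hold for every list. Of the 9 called JAK-STAT and NF-kappaB genes replicate 4 was nearest at 4, and so was LTearly 2. At 9 called monocyte and macrophage genes it was nearest at 4, and at 6 integrin genes at 2, against 3 for LTearly 1. Over all genes called higher replicate 4 was the nearest at 237 of 494, and over those called lower at 187 of 409. It also had the most counts of the LTearly libraries. Without it, 8 cytokine, 10 pathway and 10 immediate early genes were called higher.

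**Figure D4:**
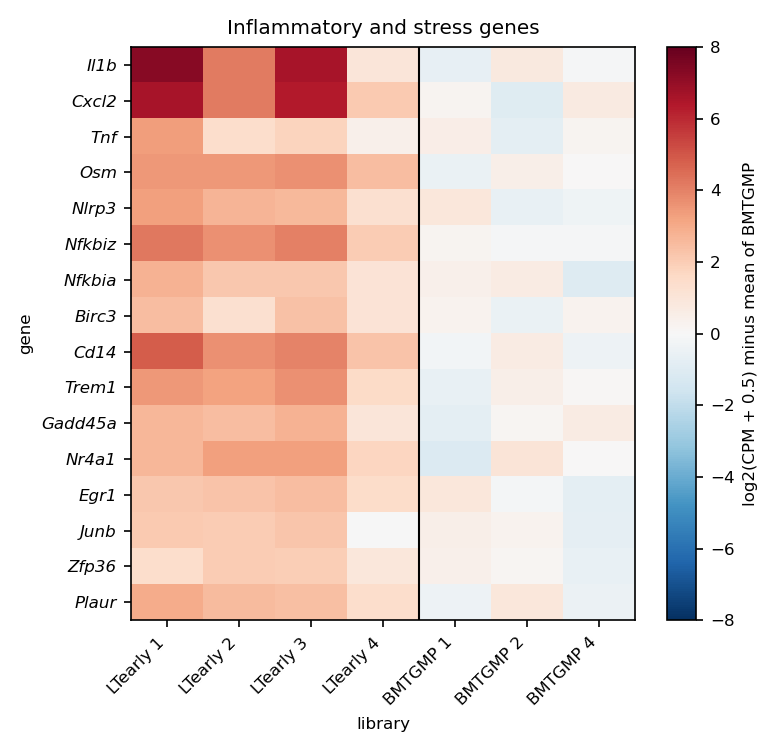
Level of 16 inflammatory and stress genes in each of the 7 libraries, as log2 of CPM plus 0.5 minus the mean of the 3 BMTGMP libraries, with red above and blue below that mean. LTearly 1, 2 and 3 are well above BMTGMP at most genes and LTearly 4 is paler, for example 0.95 at Il1b against 7.3 in LTearly 1. Only genes called higher are shown, so the red of LTearly follows from their choice.

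LTearly 3 differed from the other 3 LTearly libraries in a group of genes that interferon gamma switches on. The summed level of 35 interferon response genes was 5152 CPM in LTearly 3, 844 to 1219 CPM in the other LTearly libraries and 1006 to 1074 CPM in BMTGMP. For 14 genes of MHC class II and antigen presentation it was 4685 CPM in LTearly 3, 750 to 1178 CPM in the other LTearly libraries and 239 to 655 CPM in BMTGMP. Genes chosen after their values were seen show what carries the sums. The GTPase gene Gbp2 stood at 1072 CPM in LTearly 3 and at 0 to 21.7 CPM in the other 6 libraries. Irf1 stood at 698 CPM against 32.9 to 108 CPM, and cathepsin S (Ctss), a protease of antigen processing, at 4391 against 186 to 1080 CPM. Group differences at these 3 genes were not called (adjusted p = 0.12, 0.146 and 0.104), although Gbp2 was without LTearly 4 (0.0446), and DESeq2 called Irf1 (0.0185) and Ctss (0.00664). Of 34 interferon response genes 1 was higher and 1 lower. Ifit2 was lower (-1.43 ± 0.35, adjusted p = 0.0129, but 0.0727 without BMTGMP 2). Oas3 was higher with overlapping groups (3.32 ± 0.89, 0.0282), and was lost without LTearly 3 (0.196), BMTGMP 1 (0.0915), BMTGMP 2 (0.0635) or BMTGMP 4 (0.0969). Of 13 class II genes edgeR called 0, with 4 at an unadjusted p below 0.05, and DESeq2 called 4.

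Genes of ribosome production were lower in LTearly. Of 36 ribosome biogenesis and MYC target genes, 20 were lower and none higher, against 2.81% of all genes called lower, and all 36 had a negative log2 difference (median -0.86). Without 1 library the count was 16 to 22, and with only the 7 libraries in the fit 13. Their summed level was 6288, 7649, 7157 and 9221 CPM in LTearly and 13953, 16263 and 11472 CPM in BMTGMP. Summed levels in LTlate were 11670 to 12746 CPM and in wtGMP 17837 to 25017 CPM, so LTearly was the lowest of the 4 groups. Dyskerin (Dkc1), which modifies ribosomal RNA and is part of telomerase, read 120, 91.5, 90.5 and 140 CPM in LTearly and 348, 339 and 234 CPM in BMTGMP (-1.47 ± 0.20, adjusted p = 4.89e-05). Nolc1, a nucleolar chaperone, read 274, 309, 304 and 324 CPM against 693, 821 and 617 CPM (-1.23 ± 0.17, adjusted p = 5.01e-05). The RNA helicase gene Ddx21 read 451, 419, 389 and 450 CPM against 826, 880 and 796 CPM (-0.96 ± 0.15, adjusted p = 0.000283). Within each group the values at these genes lay close together. Spermidine synthase (Srm), a classic MYC target, read 1.71, 4.25, 2.2 and 3.04 CPM against 17.9, 23.3 and 15.5 CPM (-2.74 ± 0.47, adjusted p = 0.000654). Nop56, a core protein of box C/D particles, was lower by a log2 difference of -1.06 ± 0.19 (adjusted p = 0.000734). Myc itself, chosen after its values were seen, read 19.8, 39.9, 45.8 and 31.7 CPM against 48.9, 61.2 and 66.7 CPM without overlap, but was not called (-0.79 ± 0.28, adjusted p = 0.0987). The letters CACGTG, the E-box that MYC binds and which reads alike on both strands, stand in 1 of 17 promoters of the 20 lower genes (5.88%, Hspd1), in 11% of those of all genes called lower, 10.6% of those called higher, 9.06% of those tested and 6.86% of all promoters of the table.

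Of 40 proliferation genes 8 were lower, 1 was higher and 31 were not called (median -0.37). Mcm3, a subunit of the replication helicase, read 289, 375, 242 and 472 CPM against 879, 759 and 859 CPM (-1.27 ± 0.18, adjusted p = 9.16e-05). Mcm10, which helps to start replication, read 43, 72.6, 83.9 and 54 CPM against 132, 156 and 162 CPM (-1.25 ± 0.22, adjusted p = 0.00075). No LTearly library reached the BMTGMP range at either gene. The helicase genes Mcm2 (-0.92 ± 0.20, adjusted p = 0.00477) and Mcm5 (-0.88 ± 0.22, 0.0164) and the spindle checkpoint gene Bub1 (-1.03 ± 0.24, 0.00921) were lower, with Mcm5 lost without BMTGMP 1 (0.0533) and with only the 7 libraries in the fit (0.109). Without BMTGMP 1 the lower proliferation genes numbered 4. Mki67 stood at 5865 to 9252 CPM against 7654 to 8567 CPM (-0.19 ± 0.15, adjusted p = 0.578) and Top2a differed by -0.21 ± 0.17 (0.574), and both were chosen after their values were seen. The higher gene, named to complete the count, was the cyclin gene Ccnd2 (2.83 ± 0.70, adjusted p = 0.0264). It was lost without LTearly 1 (0.0643), LTearly 3 (0.061), BMTGMP 1 (0.0513) or BMTGMP 2 (0.103).

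**Figure D5:**
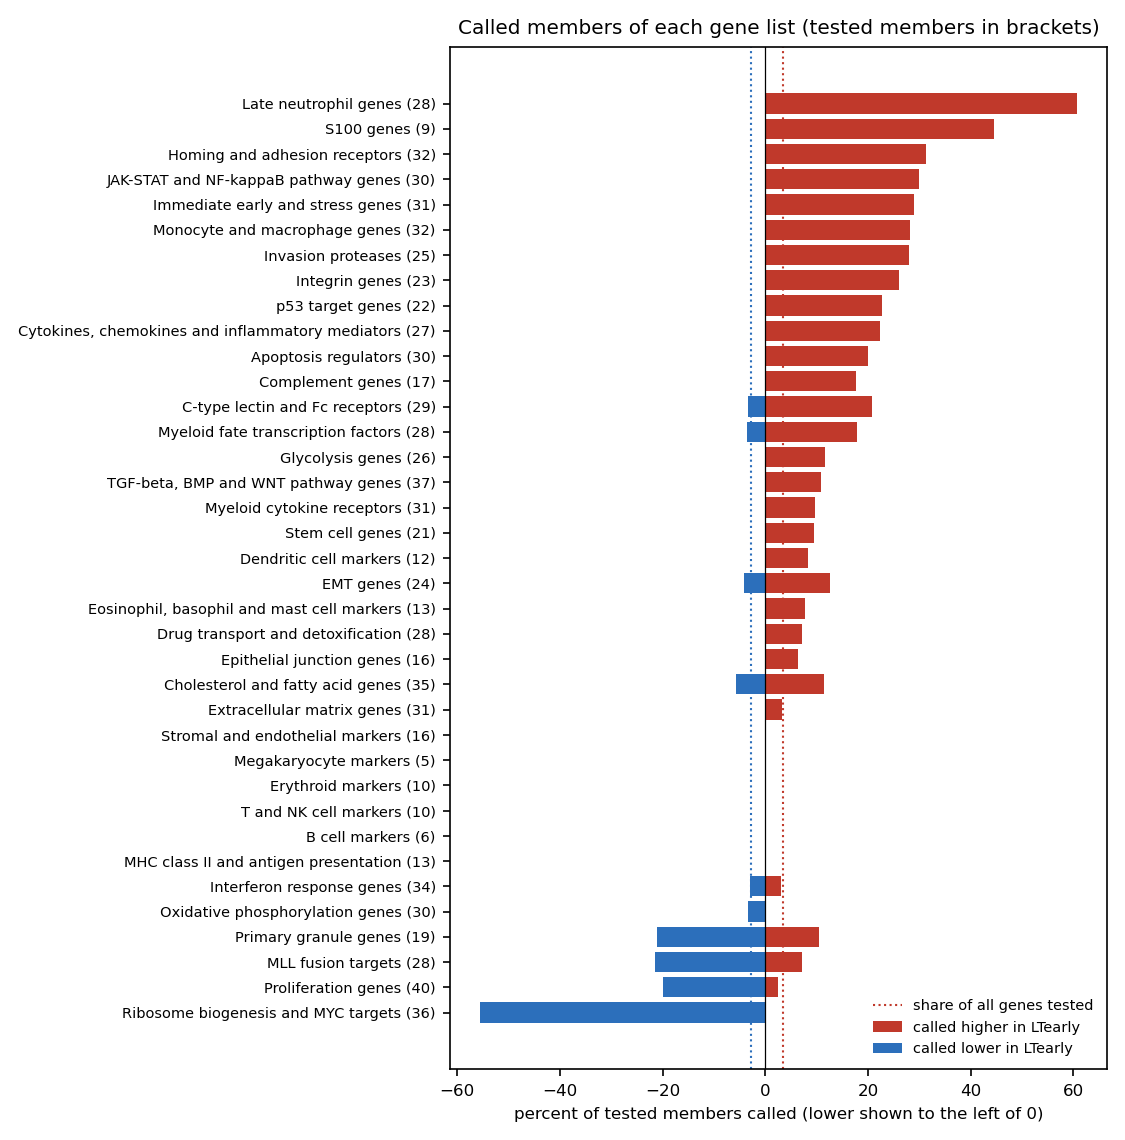
Percent of the tested members of each of 37 gene lists that were called higher (red, right of 0) or lower (blue, left of 0) in LTearly, ordered by the difference of both, with the number tested in brackets. Dotted lines mark the shares over all genes, 3.4% higher and 2.81% lower. Late neutrophil genes (17 of 28 higher) stand at the top and ribosome biogenesis genes (20 of 36 lower) at the bottom.

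Metabolic lists held few calls. Of 30 oxidative phosphorylation genes Ndufa5, a subunit of complex I, was the 1 called, at 27.1, 30, 20.5 and 21.5 CPM against 71.1, 93.9 and 67.1 CPM (-1.64 ± 0.26, adjusted p = 0.000276). The list had a median of -0.21. Of 26 glycolysis genes 3 were higher (median 0.03, and 1 without BMTGMP 1 or BMTGMP 4), among them the glucose transporter gene Slc2a1, which read 116, 39.4, 37 and 23.5 CPM against 7.98, 5.56 and 7.74 CPM (2.92 ± 0.61, adjusted p = 0.00525). Its relative Slc2a3 was higher by 2.92 ± 0.62 (adjusted p = 0.0122, but 0.055 without BMTGMP 1 and 0.069 without BMTGMP 4). Among 35 cholesterol and fatty acid genes 4 were higher and 2 lower (median -0.03), with 2 higher without LTearly 3 or any 1 BMTGMP library. Lipoprotein lipase (Lpl) read 89.6, 31.9, 28.9 and 51.8 CPM against 1.86, 0.129 and 2.51 CPM (5.12 ± 0.82, adjusted p = 0.00256).

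Among the remaining lists, 4 of 37 TGF-beta, BMP and WNT pathway genes were higher and none lower (median 0.54), and 2 without any 1 BMTGMP library. Smad7, the feedback inhibitor of TGF-beta signalling, read 39.1, 31.9, 12.5 and 17.7 CPM against 4.83, 2.98 and 4.18 CPM (2.66 ± 0.55, adjusted p = 0.00323), and the co-repressor gene Tgif1 was higher by 2.57 ± 0.57 (0.00536). Of 17 complement genes 3 were higher (median 1.49), led by Cd93, a receptor of early progenitors and phagocytes. Cd93 read 194, 145, 114 and 260 CPM against 57.4, 34.3 and 48.3 CPM (1.94 ± 0.26, adjusted p = 4.89e-05), with 325 CPM on average in LTlate and 406 CPM in wtGMP. Of 31 myeloid cytokine receptor genes 3 were higher (median 0.90), Csf3r, Il6st and Ifngr2, with 7 without LTearly 4 and 6 without BMTGMP 1.

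The largest differences without overlap held 12 genes in each direction, counting those whose higher group averaged 5 CPM or more. On the higher side, 3 had no counts in BMTGMP, and their fold is a lower bound from a floor of 3 counts over the group. Eps8l1, a relative of an actin regulator, read 10, 16.8, 21.2 and 16 CPM in LTearly, at least 121-fold higher (adjusted p = 0.000172). AA467197 (34, 4.25, 22.7 and 0.702 CPM) was at least 90.5-fold higher (0.00305). Cfap74, a gene of motile cilia, was at least 127-fold higher (0.0199), with most of its level in LTearly 4 (29.4 CPM against 1.47 to 7.71), and was lost without LTearly 4 (0.0788), BMTGMP 1 (0.0689) or BMTGMP 2 (0.0602). With 1 to 3 counts in BMTGMP, the pooled count ratio was 167 (95% counting interval 29.4 to 6634) at Smpdl3b, 80.7 (27.2 to 395) at Luzp2 and 63.9 (17.3 to 535) at Kcnq5. Intervals and floors cover counting error only. Each of these 3 calls was lost without LTearly 1 (0.138, 0.0635 and 0.0563) and without BMTGMP 2 (0.154, 0.138 and 0.0889), and each without 1 to 3 further libraries. The myeloid receptor gene Tarm1 read 51.5, 8.77, 43.6 and 5.62 CPM against 0, 0 and 2.51 CPM (5.2 ± 1.28, adjusted p = 0.0194) and kept its call in all 7 fits without 1 library, but lost it with the replicate block (0.113) and with only the 7 libraries in the fit (0.13). Tnip3 (5.44 ± 1.43, adjusted p = 0.0249) rested on LTearly 1 (66.2 CPM, against 3.72 to 7.02 in the other 3; adjusted p = 0.315 without it, and 0.0734 to 0.102 without a BMTGMP library). Smim5 (5.38 ± 1.59, 0.0404) was lost without LTearly 2 (0.121), BMTGMP 2 (0.133) or BMTGMP 4 (0.122).

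On the lower side, Mgl2, a lectin receptor gene of macrophages, read 0.733, 0, 4.03 and 5.15 CPM in LTearly and 182, 187 and 222 CPM in BMTGMP (-6.20 ± 0.79, adjusted p = 0.000734). Its neighbour and close copy Clec10a differed likewise (-4.01 ± 1.07, adjusted p = 0.0243), and was lost without LTearly 2 (0.0618), BMTGMP 1 (0.0576) or BMTGMP 4 (0.0593). Reads that match both were divided between them, so the split between the 2 is uncertain. Cgnl1, a protein of cell junctions, read 22.5, 9.04, 4.03 and 7.14 CPM against 238, 50.2 and 1421 CPM (-5.73 ± 1.12, adjusted p = 0.014). The BMTGMP libraries differed widely among themselves here, yet none came down to LTearly. The Cgnl1 call was lost with the replicate block (0.081), with only the 7 libraries in the fit (0.0992) and without LTearly 3 and 4 together (0.1). Further genes that kept their calls without any 1 library were Serpinf1, an inhibitor of vessel growth (-5.62 ± 1.15, adjusted p = 0.00501), the collagen gene Col5a3 (-4.83 ± 0.88, 0.00112), the splicing factor gene Rbfox2 (-4.67 ± 1.0, 0.00432, but 0.055 with transcripts summed) and Pax8. The lipid kinase gene Pik3c2g (-6.11 ± 1.46, 0.0356) read 351, 30.4 and 346 CPM in BMTGMP and 0 to 12 CPM in LTearly, and was lost without LTearly 2, 3 or 4 or BMTGMP 1 or 4 (0.0607 to 0.108). Tceal8 (-3.67 ± 0.96, 0.0475), Fastkd3 (-3.56 ± 1.01, 0.0318) and Abcc8 (-3.52 ± 1.05, 0.0448) were also among the 12. Tceal8 was lost in 6 of the 7 fits without 1 library (0.0746 to 0.116, kept without LTearly 4). Fastkd3 was lost in 5 (0.0512 to 0.0647, kept without LTearly 2 and LTearly 4), and Abcc8 in 6 (0.0567 to 0.173, kept without LTearly 1).

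The smallest p-values lay at genes of moderate difference and even levels within each group, and the next 6 genes were chosen after their values were seen. Lsp1, an actin-binding protein of leucocytes, read 542, 873, 857 and 685 CPM in LTearly and 172, 135 and 140 CPM in BMTGMP (2.31 ± 0.21, adjusted p = 1.34e-07). Hip1r, which links clathrin to actin, read 134, 133, 118 and 120 CPM against 8.07, 20.3 and 7.11 CPM (3.40 ± 0.35, adjusted p = 4.6e-07). Lsp1 and Hip1r showed no overlap and no LTearly library that stood apart. The scaffold gene Iqgap2 (2.31 ± 0.23), the histone demethylase gene Kdm7a (2.11 ± 0.21) and the kinase gene Csnk1e (2.39 ± 0.28) were higher in the same way (adjusted p = 4.01e-07, 4.01e-07 and 4.8e-06). Tspoap1 was lower, at 216, 172, 173 and 196 CPM against 541, 780 and 1035 CPM (-2.05 ± 0.21, adjusted p = 4.01e-07). All 6 kept their calls in the fits without 1 library.

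Set beside the other groups, the LTlate mean lay between the LTearly and BMTGMP means at 379 of the 494 higher genes and 359 of the 409 lower genes. The wtGMP mean lay between them at 212 of the higher genes, below both at 235 and above both at 47. At the lower genes it was between them at 160, above both at 215 and below both at 34. These are counts of means, with no test. The genes were called because LTearly and BMTGMP lay apart in these same libraries, which by itself favours other means lying between them. The same counts over all genes tested are not given, so whether LTlate is intermediate between the groups was not tested.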

How the data were processed

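RNA-seq libraries from sorted bone marrow were sequenced on an Illumina instrument, per the labels. The authors deposited 1 table of expected counts for 28847 RefSeq transcripts on mm9, with 16 value columns. Reads with several hits were split over those hits, so 13.7% of the deposited values are not whole (tolerance 1e-06), and no scaling for depth was applied. The submitters' processing notes name Bowtie 0.9.9.1. Of these columns 1 matches none of the samples used here and was left out.

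Gene symbols were found for 26092 transcripts (25977 through RefSeq, 115 through GENCODE). Transcripts without a match held 3.51% to 4.16% of counts. For each of 20453 genes the transcript of highest mean count was kept and rounded. Of 105 pairs of libraries 0 were identical.

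edgeR 4.0.16 (R 4.3.3) was fitted to 14 libraries (wtGMP 4, LTearly 4, LTlate 3, BMTGMP 3) with TMM scaling, the filterByExpr filter and the robust quasi-likelihood test, 2-sided, at a Benjamini-Hochberg adjusted p of 0.05. SE was derived as the log2 difference divided by the root of the F statistic. The filter kept 14542 genes (common coefficient of biological variation 0.748). Alternatives were DESeq2 1.42.0, other scaling and filters, the replicate number as a block, only the 7 libraries, transcripts summed, the library in no group counted as LTearly, thinning to 2469470 counts, and each library left out.

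Genes are named by rule: the 12 largest called differences each way without overlap and with at least 5 CPM in the higher group, up to 5 called members with the smallest p of each of 37 lists (911 genes, 900 in the table), and the genes always named (fusion, stem cell and gate genes). Others are said to be chosen after their values were seen. The comparison and the lists were chosen with earlier results of these data known. Ly6g has no matched row and is not given. Some genes that the rule names are not reported here.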

Additional observations from a re-analysis of the deposited data

Results flagged for a closer look

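In the 4 LTearly libraries, 11 of 137 genes named by rule had 1 library whose gap to the nearest other exceeded Dixon's 95% critical value, where chance gives about 1 in 20 groups. LTearly 1 stood above the others at Tnip3 (66.2 CPM), Pik3c2g (12), Pax8 (6.6), Hoxa9 (124), Cd44 (1052) and Skil (411). LTearly 2 did so at Serpinf1 (1.6 CPM). LTearly 3 stood above the others at Clec10a (6.59 CPM), Elovl6 (24.2) and Ly6a (16.5), and below them at Kmt2a (207).

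The library whose title and column disagree on the group was used in no comparison, and it lay above every wtGMP library at 6 of 7 fusion, HOX and stem cell factor genes compared, all but Mllt3. Its levels were 394 CPM at Kmt2a, 122 at Hoxa9, 416 at Meis1, 92.7 at Mecom, 109 at Erg and 64.8 at Zeb1.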

How the results depend on the processing

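The 494 higher and 409 lower genes became 962 and 531 by DESeq2 and 267 and 140 with only the 7 libraries compared in the fit. Leaving out each library of both groups in turn gave 267 to 625 higher and 245 to 665 lower genes. With median-ratio size factors 574 were higher and 330 lower, which moved the median log2 difference of all genes from 0.10 to 0.16. The other settings stayed within 1.5 times of both counts: 480 and 448 without a low-count filter, 463 and 448 with 1 CPM in 3 libraries, 408 and 303 with transcripts summed, 554 and 498 with the library in no group counted as LTearly, 555 and 412 after thinning, and 440 and 492 without LTearly 3 and 4. No called gene changed sign under any of the 17 settings. The replicate numbers did not pair the samples (correlations of same-numbered deviations -0.063, -0.022 and -0.16), and the fit with the replicate block called 446 higher and 359 lower genes. Some genes without a call changed sign. With 1 library left out, the log2 difference ran from -0.22 to 0.12 at Kmt2a, -0.27 to 0.83 at Mllt3, -0.28 to 0.70 at Cd48, -0.15 to 0.84 at Il7r, -1.95 to 0.55 at Cd5, -0.52 to 0.02 at Hoxa10, -0.22 to 0.68 at Pbx3 and -0.28 to 0.36 at Zeb2. Kmt2a was at 0.00 with median-ratio size factors and by DESeq2, 0.04 with the replicate block and 0.08 without LTearly 3 and 4, where Hoxa10 was at 0.09. With the block, Mllt3 was at -0.03, Il7r at -0.06 and Cd5 at -0.55. With the library in no group as LTearly, Cd5 was at -0.21 and Pbx3 at -0.23. Among genes named above, calls were also lost under settings that leave out no single library. With only the 7 libraries this held for Il1b, Kcnq5, Cxcl2, Tnip3, Smim5, Tarm1, Pik3c2g, Cgnl1, Clec10a, Fastkd3, Abcc8, Satb1, Jmjd1c, Tcf4, Lgals1, Itgb2, Mmp9, Ctsc, Ctsg, Calr, Junb, Ifngr2, Jak1, Oas3, Cdkn1a, Mcm5, S100a9, Tgif1, Prg2, Ptprc, Cdk6, Lmo2, Sox4, Ltf, Padi4, Hp, Elane, Tnf and Ccnd2 (adjusted p = 0.0501 to 0.264). With the replicate block it held for Smpdl3b, Il1b, Luzp2, Cxcl2, Smim5, Tarm1, Pik3c2g, Cgnl1, Abcc8, S100a4, Itgb2, Msr1, Oas3, Cdkn1a, Lmo2 and Elane (0.0566 to 0.156), and Mecom, Myb, Vim, Camp and Csf1r gained a call (0.00325 to 0.0335). With transcripts summed, Cfap74, Smpdl3b, Luzp2, Smim5, Rbfox2, Clec10a, Tceal8, Fastkd3, Abcc8, Calr, Cdkn1a and Tnf were lost (0.0514 to 0.118). Without LTearly 3 and 4, Cfap74, Smpdl3b, Luzp2, Pik3c2g, Cgnl1, Tceal8, Fastkd3, Abcc8, Hoxa9, Lgals1, S100a4, Itgb7, Fpr2, Egr1, Oas3, S100a9, Prg2, Lmo2, Ltf and Ccnd2 were lost (0.0506 to 0.221), and Myb and Mpo gained a call (0.00185 and 0.0284). With the library in no group as LTearly, Luzp2, Tceal8, Fastkd3, Olfm4, Cdkn1a, Prg2, Cdk6, Lmo2, Sox4, Elane and Tnf were lost (0.0565 to 0.254) and Myc gained a call (0.0415). Without a low-count filter, Cxcl2, Tceal8, Abcc8, S100a4, Mmp9, Ctsg, Prg2, Sox4, Elane and Ccnd2 were lost (0.0501 to 0.0685). Tceal8 and Elane were lost with 1 CPM in 3 libraries, Tceal8 and Abcc8 with median-ratio size factors, and Smpdl3b and Lmo2 after thinning. DESeq2 called Fcgr3, Myb, Flt3, Vim, Fn1, Camp, Mpo, Irf1, Ctss and Csf1r in addition (0.00216 to 0.0361), thinning Mecom, Fcgr3, Flt3, Vim and Csf1r, median-ratio size factors Fcgr3, and the 7 libraries alone Mecom and Fn1. The cause of these shifts was not tested. LTearly 3, at 2695917 counts, had the lowest depth of the 7, so levels near 0 are least certain there.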

Other observations

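The library whose title says LTearly and whose column says LTlate was in no group, and its levels at genes described above are given here as values. It stood at 529 CPM at Dsp, 1924 at Cybb, 97.4 at Osm, 7036 at S100a9, 29.5 at Stat4 and 92.3 at Dkc1, each within the range of the 4 LTearly libraries or just above it. At Mgl2 (7.08), Pax8 (7.88) and Mef2c (848) it lay above the highest LTearly library. At Alcam (30.5), Igfbp4 (16), Abcb1b (14.4) and Olfm4 (38.2) it lay below the lowest.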
